A study of Mus musculus with 7 samples.

Results

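Chemokines are small secreted proteins that form gradients and draw leukocytes through seven-transmembrane receptors coupled to G proteins. They are grouped by the spacing of their first cysteines into CC, CXC, C and CX3C ligands, and the receptors are named after the ligand group they bind. In the uterus, chemokines made by stroma, epithelium and leukocytes are known for recruiting natural killer (NK) cells, macrophages, dendritic cells and eosinophils over the oestrous cycle and around implantation.

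The chemokine ligand and receptor genes were followed in mouse uteri into which 1 further chemokine, CXCL12, had been infused. Rows were chosen by gene symbol alone (Ccl, Cxcl, Xcl1 and Cx3cl1 for ligands, Ccr, Cxcr, Xcr1 and Cx3cr1 for receptors), with Cxcl12 itself and 4 other family members left out by the rule. This gave 56 of 23282 rows, of which 40 were ligand rows and 16 were receptor rows, for 52 distinct symbols.

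Per the study's methods, 6-week-old C57BL/6 female mice received recombinant human CXCL12 in saline through a syringe into one uterine horn and saline alone into the other horn, and whole uterine tissue was taken 3 or 8 days later. The libraries were 2 of saline-treated uterus, 2 of CXCL12-treated uterus at Day 3 and 3 of CXCL12-treated uterus at Day 8. For saline the labels state no day, and they do not say which horns shared an animal or whether replicates came from separate mice, so P values measure the spread between these libraries. Expression was read by QuantSeq 3′ mRNA sequencing, in which reads come from the 3′ end of polyadenylated transcripts.

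Levels are given as CPM (counts of a gene per 1000000 reads of its library), scaled between libraries by the trimmed mean of M values (TMM). Totals in the 6 count tables ranged from 6908790 to 12308982 reads, so that 3 counts, taken as the floor, correspond to 0.244 to 0.434 CPM. These limits cover counting error only. Day 3 replicate 1 was deposited as log2 values, which were turned back to a linear scale, and it has no counts. No batch is given in the labels.

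Day 8 replicate 1 stood apart before any chemokine was considered. Its table carries Day 3 in its name, while its label says Day 8, and it was kept with Day 8. Over 14830 genes its log2 profile had a correlation of 0.947 and 0.948 with the Day 3 libraries and 0.892 and 0.894 with the other Day 8 libraries, which had 0.933 between themselves. With the saline-treated libraries it had 0.891 and 0.942, so that it was about as close to saline replicate 2 as to Day 3, and saline replicate 2 had 0.948 and 0.942 with the Day 3 libraries. It was the lowest of the 3 Day 8 libraries in 29 of 40 tested chemokine rows. How often this held over all genes was not counted, so it is no trait of the chemokine rows. The ribosomal RNA gene Rn45s took 13.0% of its total, against 9.36% to 10.4% in the other libraries. The counts of rows past the thresholds defined below, the medians at Day 8 and the values of Ccl8, Cxcl17, Ccl9, Ccl17, Ccr2 and CCL21 are also given without it.

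The defining markers of uterus were present in every library. The summed level of Hoxa10, Hoxa11, Esr1, Pgr, Wnt7a and Emx2 lay between 908.7 and 1519 CPM. Pgr was the most abundant, except in saline replicate 2 and Day 8 replicates 2 and 3, where Esr1 was. RNA of neighbouring tissue was also present in unequal amounts. The summed level of 11 ovarian markers was 220 and 1125 CPM in the saline-treated libraries. It was 9.65 and 13.9 CPM at Day 3 and 110, 3738 and 15.9 CPM at Day 8, with no marker at 0 throughout. Hsd3b1, a steroidogenic enzyme, was the most abundant with saline and in Day 8 replicates 1 and 2. It was at 0.0083 and 0 CPM at Day 3 and at 0.407 CPM in Day 8 replicate 3. The summed level of 7 adipocyte markers was 826 and 2497, then 3154 and 313, then 242, 372 and 254 CPM. Fabp4 was the most abundant of them, except in saline replicate 1 and Day 8 replicates 2 and 3, where Cfd was. At Day 8 against saline, 7 of 7 adipocyte markers were lower past the cutoff defined below, and none of the ovarian markers was past it. At Day 3 against saline, 7 of 11 ovarian markers were lower past it, and no adipocyte marker was past it. Of all genes, 1.42% were lower at Day 8 and 2.61% at Day 3. At Day 8 against Day 3, 3 ovarian markers were higher and 2 adipocyte markers lower, beside 2.25% and 2.41% of all genes. The part of these tissues in the chemokine values was not tested.

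Of the 56 rows, 7 were at 0 in every library, namely Cxcr1, Ccr8, Ccl26 and 4 duplicate rows of Ccl19, Ccl21a and Ccl21b. In all, 14 rows stayed under 1 CPM in every library, among them Ccr4, Ccr6, Ccr10, Ccl1, Ccl20, Ccl22 and Cxcl11. The filter on low values left 40 rows to be tested in the comparison of Day 8 with saline, 29 ligands and 11 receptors, and 39 rows in the comparisons with Day 3, where Ccr7 dropped out. The 29 tested ligands summed to 783 and 821 CPM in the saline-treated libraries, 959 and 818 CPM at Day 3, and 715, 1219 and 1364 CPM at Day 8.

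The ligands with the highest mean log2 level over all libraries were Ccl6 among the CC ligands, a myeloid chemokine of rodents that signals through Ccr1, and Cxcl14 among the CXC ligands, which is made by epithelium and stroma. Ccl6 was at 101 and 227 CPM in the saline-treated libraries, 229 and 138 CPM at Day 3 and 116, 175 and 215 CPM at Day 8. The groups overlapped throughout. At Day 8 alone Ccl21a had the higher mean, 205 against 169 CPM for Ccl6. The mean of Cxcl14 rested on saline replicate 1, and Cxcl17 had the higher mean at Day 3 (53.9 against 40.5 CPM) and at Day 8 (74.1 against 55.1 CPM). These levels are counts at the 3′ end, so they follow molecules and are not divided by transcript length.

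No chemokine row passed an adjusted p of 0.1 in any comparison. The adjusted p (Benjamini-Hochberg, over all genes tested) of the chemokine rows was at least 0.956 by edgeR for Day 8 against saline, 0.623 by limma for Day 3 against saline and 0.670 by limma for Day 8 against Day 3. Rows were therefore counted by fold and P alone, a change of at least 2-fold at an unadjusted P under 0.05, leaving aside the FDR limit of 0.1 that is also part of the study's criteria, and such a row is called here a row past the cutoff. By the same tools, 658, 1092 and 1068 of all genes had an unadjusted P under 0.05, and 0 genes passed the adjusted p of 0.1.

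At Day 3, 6 of 39 tested rows were past the cutoff, against 4.5% of all 14830 genes (1.89% higher and 2.61% lower). There were 5 higher rows, the ligands Ccl11, Ccl12, Ccl7 and Xcl1 and the receptor Ccr3, and 1 lower row, Cxcl5. Across all tested ligands the median log2 fold change was -0.003, and across the receptors -0.34, beside 0.008 over all genes. The groups did not overlap in CPM in 19 of the 39 rows, 8 above saline and 11 below it, where 48.5% of all genes did not overlap, 26.8% above and 21.8% below.

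**Figure D1:**
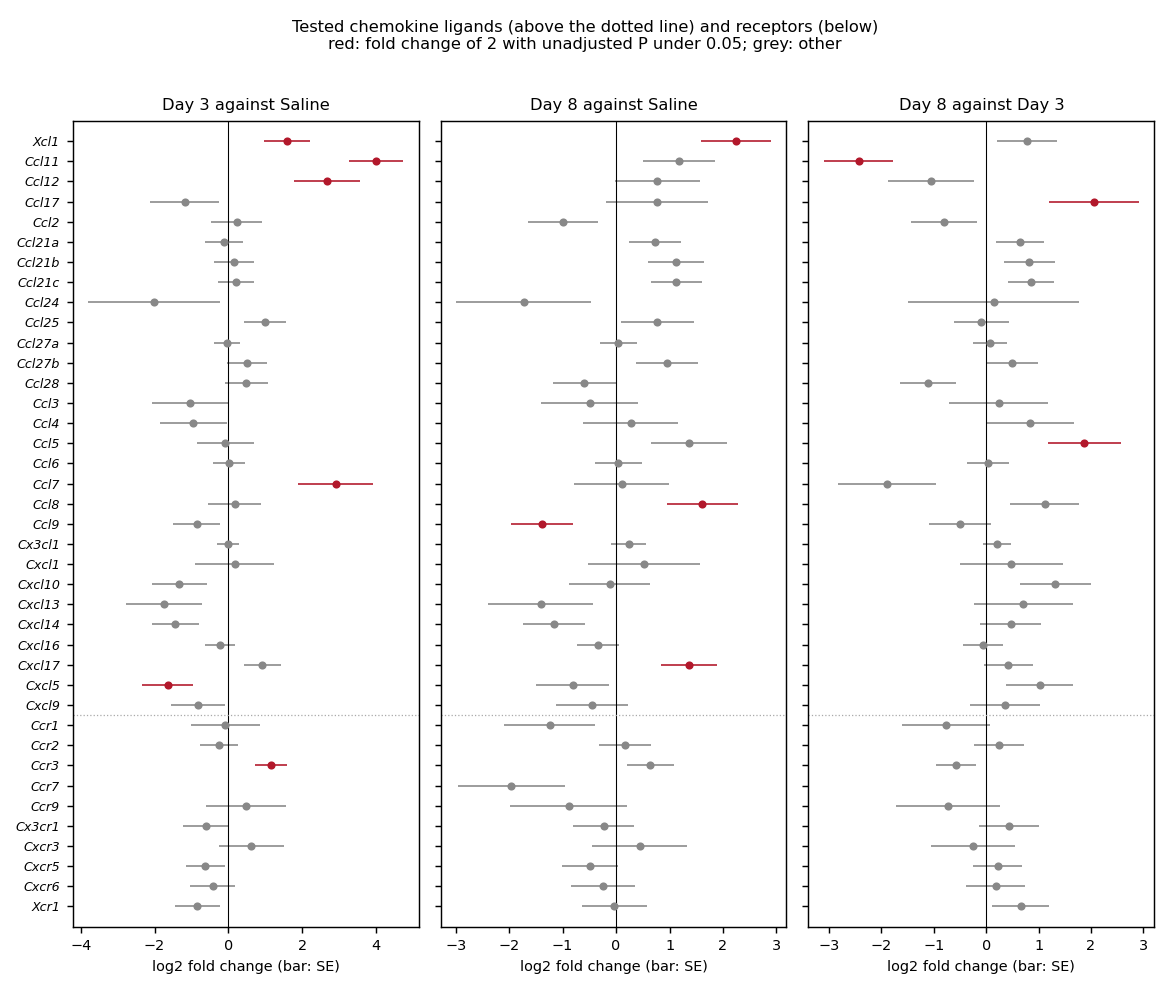
Log2 fold change (x axis) of tested chemokine rows (y axis) in the 3 comparisons, with ligands above the dotted line and receptors below. Points are estimates, bars are 1 standard error, and red marks rows past the cutoff, which are 6 at Day 3 against saline, 4 at Day 8 against saline and 3 at Day 8 against Day 3.

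The higher ligands of Day 3 included 3 neighbours. Ccl2, Ccl7, Ccl11, Ccl12 and Ccl8 lie in this order on the plus strand of chromosome 11 (GENCODE M21 on GRCm38), with Ccl2 at chr11:82035571-82037453, Ccl7 at chr11:82045712-82047525, Ccl11 at chr11:82057823-82062955, Ccl12 at chr11:82101845-82103400 and Ccl8 at chr11:82115185-82116799. The genes around Ccl11 encode monocyte chemoattractant proteins, and Ccl11 encodes eotaxin, which draws eosinophils through Ccr3. No 75-base word in the last 500 bases of these 5 transcripts occurs in a transcript of another gene. A read of that length without mismatches from there would therefore match no other of these genes. Shorter reads and reads with mismatches were not examined.

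Ccl11 was at 2.30 and 12.3 CPM in the saline-treated libraries (19 and 128 counts). It was at 77.5 and 107 CPM at Day 3, the second with 1028 counts, and at 24.6, 12.8 and 12.4 CPM at Day 8 (213, 156 and 122 counts). Both Day 3 libraries stood above every other library, and of the Day 8 libraries replicates 2 and 3 stood just above the higher saline-treated one and replicate 1 at 24.6 CPM further above it. The log2 fold change at Day 8 against saline was 1.18 ± 0.68 (SE, edgeR, unadjusted P = 0.126, adjusted p = 0.956). Over 15 alternative fits it ranged from 0.44 to 2.85. At Day 3 against saline the log2 fold change was 4.00 ± 0.72 (SE, limma, unadjusted P = 0.000564, adjusted p = 0.623). In 15 alternative fits it lay between 2.82 and 5.21, with an unadjusted P of at most 0.0053.

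Ccl7 was at 0.726 and 9.39 CPM with saline, 19.8 and 19.0 CPM at Day 3, and 3.70, 4.27 and 8.44 CPM at Day 8. Ccl12 was at 0.726 and 7.18 CPM with saline, 14.8 and 13.6 CPM at Day 3, and 5.55, 7.96 and 6.91 CPM at Day 8. For both genes the Day 3 libraries were the highest of all, while the Day 8 libraries fell within or close to the range of saline. By limma the log2 fold changes at Day 3 were 2.90 ± 1.03 for Ccl7 (SE, unadjusted P = 0.0222, adjusted p = 0.623) and 2.66 ± 0.89 for Ccl12 (SE, unadjusted P = 0.0178, adjusted p = 0.623). Their size rested on saline replicate 1, where each gene had 6 counts, and without it the log2 fold changes were 1.07, no longer past the cutoff, and 1.02. Both rows also missed the cutoff without Day 3 replicate 1 (2.88 and 2.61) and without Day 3 replicate 2 (2.89 and 2.68), at unadjusted P from 0.0561 to 0.0699. In all, Ccl7 lost its call in 7 and Ccl12 in 5 of 14 alternative fits, those by edgeR in place of limma (1.86 and 1.77) among them.

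The outer genes of the same stretch differed from these 3. Ccl2, a monocyte attractant that binds Ccr2, was at 1.94 and 8.33 CPM with saline, 3.44 and 5.60 CPM at Day 3 and 2.31, 2.79 and 2.64 CPM at Day 8. Ccl8, whose mouse receptor is Ccr8, was at 48.9 and 48.9 CPM with saline, 78.2 and 44.2 CPM at Day 3 and 40.8, 178 and 229 CPM at Day 8. Ccl2 thus overlapped between saline and Day 3, and Ccl8 was high in 2 Day 8 libraries and not at Day 3. Saline replicate 1 was the lower of the saline-treated libraries for Ccl2, Ccl7, Ccl11 and Ccl12 and level with the other for Ccl8.

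**Figure D2:**
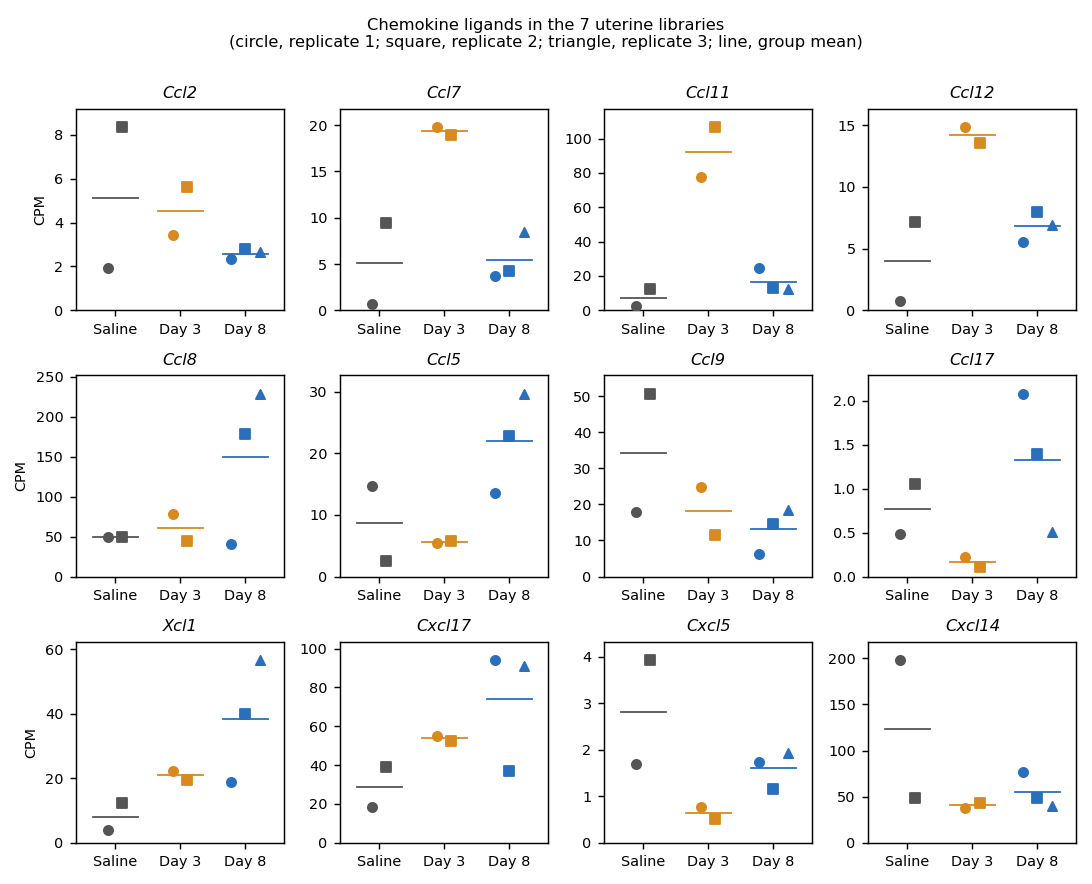
CPM (y axis, from 0) of 12 chemokine ligands by group (x axis), with 1 point per library and a line at the group mean. Ccl11 stands at 77.5 and 107 CPM in the Day 3 libraries against at most 24.6 CPM elsewhere, and Ccl8 stands at 178 and 229 CPM in Day 8 replicates 2 and 3.

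The promoters of Ccl12 and Ccl8 are shown because these adjacent genes had different patterns, one highest at Day 3 and the other at Day 8. Each sequence is the 250 bases before the start site on the plus strand (RefSeq, GRCm38.p6), chr11:82101595-82101844 for Ccl12 and chr11:82114935-82115184 for Ccl8, and capitals mark the letters TATAAA.
Ccl12: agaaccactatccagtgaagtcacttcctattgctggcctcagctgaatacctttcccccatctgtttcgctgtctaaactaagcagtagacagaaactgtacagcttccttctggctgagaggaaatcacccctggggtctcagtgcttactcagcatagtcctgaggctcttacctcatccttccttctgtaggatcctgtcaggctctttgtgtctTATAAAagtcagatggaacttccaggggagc
Ccl8: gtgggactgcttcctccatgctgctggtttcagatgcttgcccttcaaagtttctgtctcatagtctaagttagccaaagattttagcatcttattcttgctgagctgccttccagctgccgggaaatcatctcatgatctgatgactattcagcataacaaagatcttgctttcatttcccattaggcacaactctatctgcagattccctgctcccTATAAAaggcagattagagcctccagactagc

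TATAAA, searched on both strands, began 31 bases before the start in Ccl12 and 32 bases before it in Ccl8. It occurs in 12.4% of 32851 promoters of this length and in those of 10 of the 36 chemokine symbols with a promoter in the table. The letters TGANTCA (the AP-1 motif, in 6.75% of promoters) and TTCNNNGAA (STAT factors, 7.02%) were searched on both strands too and are not in either window. A match is a description of the letters and not a measured binding site.

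Ccr3, the receptor of Ccl11 that is carried by eosinophils, was the one receptor past the cutoff in any comparison. It was at 6.41 and 9.10 CPM with saline (53 and 95 counts), 20.5 and 14.2 CPM at Day 3 and 8.33, 10.3 and 17.7 CPM at Day 8 (72, 125 and 174 counts). Day 3 stood above saline, and Day 8 reached into both ranges. The log2 fold change at Day 3 was 1.16 ± 0.42 (SE, limma, unadjusted P = 0.0261, adjusted p = 0.623). It was 0.94 without saline replicate 1, 0.92 without Day 3 replicate 1, and 0.83 with Day 8 replicate 1 counted as Day 3, and missed the cutoff in these 3 fits.

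Among 24 receptor and ligand pairs with both members tested at Day 3, the pairs of Ccr3 with Ccl11 and of Ccr3 with Ccl7 were the 2 in which both were past the cutoff. The other Ccr3 ligands did not follow. Ccl5 was near saline at Day 3, Ccl26 was at 0 in every library, and Ccl24 was at 0.847 and 4.21 CPM with saline, 1.93 and 0 CPM at Day 3 and 0, 0.821 and 1.42 CPM at Day 8. Ccl28, a mucosal epithelial chemokine, was at 3.75 and 7.09, then 6.88 and 7.05, then 5.90, 2.38 and 2.54 CPM.

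Markers of eosinophils were low. The 7 genes of the list summed to 5.93 and 10.3 CPM with saline and 12.4 and 8.81 CPM at Day 3. At Day 8 they summed to 9.14, 12.2 and 10.7 CPM. Siglecf was the most abundant at Day 8 and in Day 3 replicate 1. Ear2 was in saline replicate 2 and Day 3 replicate 2, and Il5ra in saline replicate 1. Of 4 tested markers at Day 3, 1 was higher past the cutoff, where 1.89% of all genes were. This was Prg2, a granule protein, which stood at 0.242 and 0.383 CPM with saline and at 1.5 and 1.04 CPM at Day 3. Its saline values were near the floor, which was 0.434 CPM in replicate 1 and 0.316 CPM in replicate 2. Epx, eosinophil peroxidase, had 0 counts in the 6 count libraries. Whether more eosinophils or more RNA per cell were present cannot be told apart in tissue libraries, and the same holds for each cell type named below.

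Xcl1 was past the cutoff at both days against saline. It encodes lymphotactin, the chemokine that NK cells and activated CD8 T cells release and that attracts Xcr1-bearing dendritic cells. Xcl1 was at 3.87 and 12.4 CPM with saline (32 and 129 counts), 22.3 and 19.5 CPM at Day 3 and 18.9, 39.8 and 56.7 CPM at Day 8 (163, 485 and 558 counts). Every CXCL12-treated library was above both saline-treated ones. The log2 fold change was 1.59 ± 0.63 at Day 3 (SE, limma, unadjusted P = 0.0355, adjusted p = 0.623) and 2.24 ± 0.65 at Day 8 (SE, edgeR, unadjusted P = 0.0107, adjusted p = 0.956), and both comparisons use the same saline-treated libraries. Without saline replicate 1 these values were 0.77 and 1.64, neither of them past the cutoff, and the Day 3 value also missed it without Day 3 replicate 1 (1.51) or replicate 2 (1.66).

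Its receptor did not follow. Xcr1, which marks cross-presenting dendritic cells, was at 4.60 and 4.31 CPM with saline, 1.83 and 2.80 CPM at Day 3 and 1.85, 4.51 and 6.61 CPM at Day 8. The Day 3 libraries were below saline and the Day 8 libraries overlapped it. The log2 difference was -0.84 at Day 3 (limma, unadjusted P = 0.200) and -0.04 at Day 8 (edgeR, unadjusted P = 0.956).

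The NK cell list had its highest sums in Day 8 replicates 2 and 3, the libraries with the most Xcl1. The 11 genes of the list summed to 36.7 and 38.7 CPM with saline and 57.0 and 55.8 CPM at Day 3. At Day 8 they summed to 49.3, 122 and 160 CPM. Il2rb, a subunit of the interleukin-2 receptor, was at 12.8 and 6.13, then 11.6 and 7.88, then 8.10, 27.2 and 24.3 CPM. It was the most abundant, except in Day 3 replicate 2 and Day 8 replicates 1 and 3, where Klre1 was. At Day 3 against saline 1 of 10 tested markers, Klre1, was higher past the cutoff and none lower, beside 1.89% of all genes higher. At Day 8 against saline 5 of 10 were higher past the cutoff and none lower, against 1.53% of all genes higher. These were Ncr1, an activating receptor of NK cells, Klrb1c, Klre1, Gzma and Gzmb. Ncr1 was at 1.33 and 2.01 CPM with saline, 3.65 and 2.59 CPM at Day 3 and 4.05, 11.0 and 14.4 CPM at Day 8. The perforin gene Prf1 stayed under 1 CPM in every library. In the T cell list, 0 of 7 tested genes were past the cutoff at Day 8 against saline, beside 2.94% of all genes. The part of NK cell number in the level of Xcl1 was not tested.

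**Figure D3:**
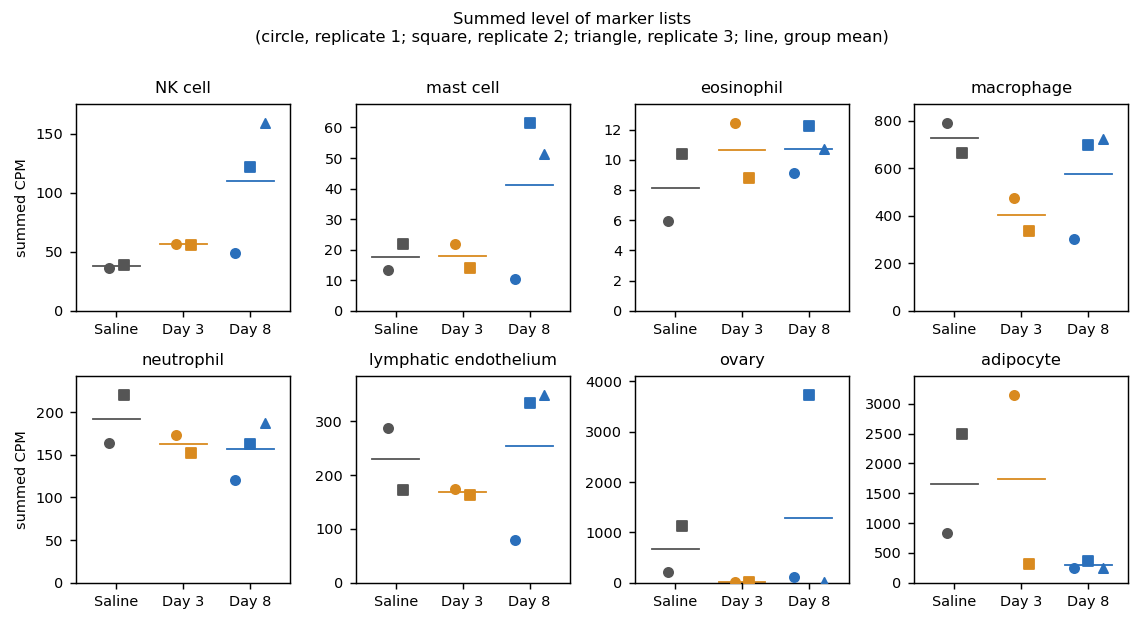
Summed CPM (y axis, from 0) of 8 marker lists by group (x axis), with 1 point per library and a line at the group mean. The NK cell list stands at 122 and 160 CPM in Day 8 replicates 2 and 3 against 36.7 and 38.7 CPM with saline. The ovary and adipocyte lists differ among libraries of 1 group and also between groups. Against saline, the ovary sums are lower at Day 3 and the adipocyte sums at Day 8.

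At Day 8, 4 of 40 tested rows were past the cutoff against saline, beside 2.94% of all 15388 genes (1.53% higher and 1.42% lower). All 4 were ligands, Xcl1, Cxcl17 and Ccl8 higher and Ccl9 lower. The median log2 fold change was 0.23 over the 29 ligands and -0.23 over the 11 receptors, beside -0.008 over all genes. Without Day 8 replicate 1 these medians were 0.30 and 0.11. The 2 groups did not overlap in CPM in 4 rows, Xcl1, Ccl11 and Ccl27b above saline and Ccr7 below it, where 19.2% of all genes did not overlap, 9.07% above and 10.2% below.

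Ccl8 rested on 2 of the 3 Day 8 libraries, with 353, 2171 and 2250 counts in replicates 1 to 3 against 404 and 511 counts with saline. Replicate 1 lay below both saline-treated libraries in CPM, and the groups overlapped. By edgeR the log2 fold change was 1.61 ± 0.67 (SE, n = 3 and 2, unadjusted P = 0.0464, adjusted p = 0.956). Without Day 8 replicate 1 it was 2.06 (unadjusted P = 0.000398, adjusted p = 0.169). With that library counted as Day 3, Ccl8 passed the adjusted p of 0.1 in this comparison (adjusted p = 0.0388, edgeR, in a range of 0.0388 to 1 over the alternatives). It missed the cutoff without saline replicate 1 (1.61) or 2 (1.62) and without Day 8 replicate 2 (1.47) or 3 (1.16), and by limma in place of edgeR (1.28, unadjusted P = 0.0906). Its known receptor Ccr8 was at 0 in every library.

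Cxcl17, a chemokine of mucosal epithelium, was at 18.5 and 39.0 CPM with saline, 55.1 and 52.7 CPM at Day 3 and 94.2, 37.0 and 91.0 CPM at Day 8. Day 8 replicate 2 lay between the saline-treated libraries and the other 2 lay above every other library. The log2 fold change at Day 8 was 1.37 ± 0.52 (SE, edgeR, unadjusted P = 0.0343, adjusted p = 0.956). It was 0.93 without saline replicate 1, 1.16 without Day 8 replicate 1 and 1.19 without Day 8 replicate 3, with an unadjusted P above 0.05 each time. Day 8 replicate 2 also had the least uterine epithelial marker RNA, 459 CPM summed over 9 genes against 845 and 1213 CPM in replicates 3 and 1, and the part of this in the level of Cxcl17 was not tested.

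Ccl9, a myeloid ligand of Ccr1, was at 18.0 and 50.8 CPM with saline, 24.8 and 11.5 CPM at Day 3 and 6.13, 14.6 and 18.5 CPM at Day 8. The highest library was saline replicate 2, and the Day 8 libraries reached up to the lower saline-treated one. The log2 fold change at Day 8 was -1.39 ± 0.58 (SE, edgeR, unadjusted P = 0.0460, adjusted p = 0.956), and it missed the cutoff at -0.45 without saline replicate 2, -1.05 without Day 8 replicate 1 and -1.47 without Day 8 replicate 2, and narrowly by limma (-1.36, unadjusted P = 0.0506). Its receptor Ccr1 was at 1.45 and 8.53, then 4.72 and 1.97, then 0.810, 2.63 and 2.85 CPM, so both genes had their highest value in saline replicate 2. Macrophages also make Ccr1 ligands. Their 11 markers summed to 792 and 663 CPM with saline and 474 and 336 CPM at Day 3. At Day 8 the sums were 300, 700 and 723 CPM. The most abundant was C1qb or C1qc, except in saline replicate 2, where Lyz2 was. Of 10 tested, 2 were lower past the cutoff at Day 8 (Cd68 and Cd163) and none higher, beside 1.42% of all genes lower and 1.53% higher. At Day 3, 3 were lower (Csf1r, Cd68 and Cd163) and none higher, beside 2.61% lower and 1.89% higher.

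The 3 expressed CCL21 rows were each highest in Day 8 replicates 2 and 3. CCL21 is made by lymphatic endothelium and guides Ccr7-bearing dendritic cells and T cells. Mice carry several nearly identical copies on chromosome 4, and Ccl21a (chr4:42772860-42773993, minus strand) and Ccl21b (chr4:42255767-42256432, plus strand, both GENCODE M21 on GRCm38) differ at 2 of 402 coding bases. These are T84A, which keeps the residue, and C194T, which changes residue 65 (S65L), with the base of Ccl21a first and positions counted from the A of the start codon. The stretch around the second difference, coding bases 164 to 223, is shown to let the likeness be seen, with the differing base in capitals.
Ccl21a: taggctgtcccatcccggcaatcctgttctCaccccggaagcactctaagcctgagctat
Ccl21b: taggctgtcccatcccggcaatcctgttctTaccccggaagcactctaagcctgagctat

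Of the 75-base words in the last 500 bases of Ccl21a, 68.5% occur in transcripts of other genes (Ccl21b, Gm10591, Gm13304 and Gm21541), and all of those of Ccl21b do. Reads with several alignments were counted along with unique ones by the authors, so a read of one copy may have been counted for the others, and the 3 rows are uncertain as separate genes. The Ccl21c row held between 0.315 and 0.395 times the value of the Ccl21b row in all 7 libraries, a narrow range beside that of Ccl21b to Ccl21a, from 0.432 to 0.814. Ccl21c has no entry under this symbol in the annotation used here.

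Summed over the 3 rows, CCL21 was at 203 and 239 CPM with saline, 248 and 244 CPM at Day 3 and 183, 529 and 532 CPM at Day 8. In this sum replicates 2 and 3 of Day 8 were the highest and replicate 1 the lowest of all libraries. By row, the lowest was Day 8 replicate 1 for Ccl21a (90.8 CPM) and saline replicate 1 for Ccl21b (55.4 CPM) and Ccl21c (19.2 CPM). By edgeR the log2 fold changes at Day 8 were 0.73 ± 0.48 for Ccl21a (unadjusted P = 0.173), 1.12 ± 0.53 for Ccl21b (unadjusted P = 0.0711) and 1.12 ± 0.48 for Ccl21c (unadjusted P = 0.0512), each with its SE and with an adjusted p of 0.956. With all Day 8 libraries kept, Ccl21c was past the cutoff by DESeq2 (1.14), limma (1.05), upper-quartile normalization (1.12) and under both other filters on low counts (1.15 without one and 1.14 with at least 10 counts), and Ccl21b was by DESeq2 (1.13) and without a filter (1.14). Without Day 8 replicate 1 they were 1.08, 1.48 and 1.45, with unadjusted P of 0.00553, 0.00404 and 0.00461 and adjusted p of 0.345, 0.334 and 0.342 (over the alternatives, from 0.217, 0.156 and 0.15 up to 1).

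**Figure D4:**
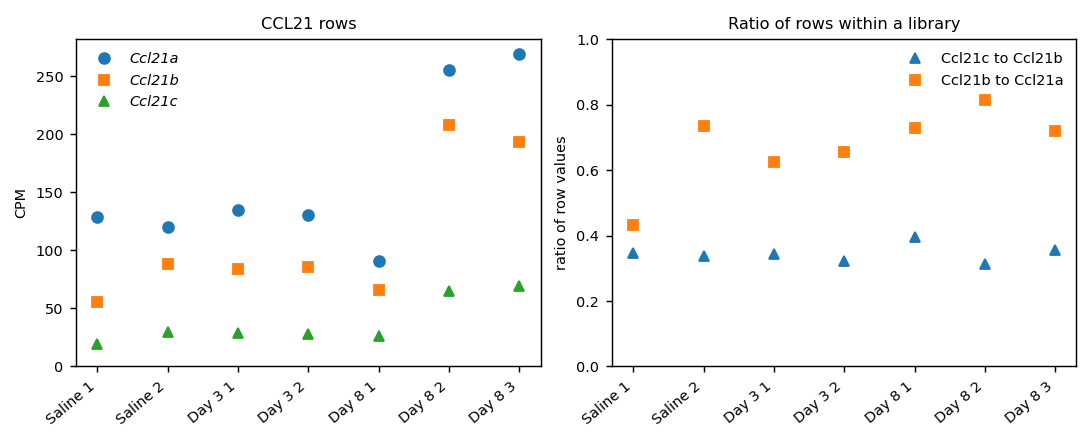
Left, CPM (y axis, from 0) of the Ccl21a, Ccl21b and Ccl21c rows in each library (x axis). Right, the ratio of row values within a library, which stays between 0.315 and 0.395 for Ccl21c to Ccl21b.

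The partners of CCL21 were scarce. Ccr7 was at 3.03 and 0.766 CPM with saline and 0.463, 0.739 and 0.203 CPM at Day 8, had 0 counts in Day 3 replicate 2 and was near 0 in Day 3 replicate 1. All Day 8 libraries were below saline, by 1.96 ± 1.00 on the log2 scale (SE, edgeR, log2 fold change -1.96, unadjusted P = 0.0898, adjusted p = 0.956), on 4, 9 and 2 counts against 25 and 8. Ccl19, the other Ccr7 ligand, did not exceed 1.21 CPM in any library. Lymphatic endothelial markers summed to 288 and 173 CPM with saline and 174 and 163 CPM at Day 3. At Day 8 they summed to 79.7, 333 and 349 CPM, so the lowest library was again Day 8 replicate 1. Lyve1 was the most abundant, except in saline replicate 1 and Day 8 replicate 1, where Pdpn was. Lyve1 made up most of the Day 8 sums in replicates 2 and 3, at 196 and 227 CPM. Of 6 tested markers none was past the cutoff at Day 8 against saline, where 2.94% of all genes were. Their median log2 fold change was -0.48 by edgeR. It was positive for Lyve1 (0.67) and Mmrn1 (0.33) and negative for Prox1 (-1.42), Flt4 (-0.64), Reln (-0.56) and Pdpn (-0.41). Prox1, the defining transcription factor, was at 2.66 CPM or less throughout. The part of lymphatic endothelium in the CCL21 values was not tested.

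The receptors with the highest mean log2 level over all libraries were Ccr2, the monocyte receptor for Ccl2, Ccl7 and Ccl12, and Cx3cr1, the fractalkine receptor of macrophages. Ccr2 was at 58.6 and 57.0 CPM with saline, 54.8 and 49.0 CPM at Day 3 and 27.5, 71.4 and 94.9 CPM at Day 8. Replicates 2 and 3 of Day 8 were the highest of all libraries and replicate 1 the lowest. The log2 difference of Ccr2 was 0.17 at Day 8 against saline (edgeR, unadjusted P = 0.747) and 0.24 against Day 3 (limma, unadjusted P = 0.625), and without Day 8 replicate 1 it was 0.53 and 0.77 (unadjusted P = 0.112 and 0.00999), a change under 2-fold in both. With that library counted as Day 3, the difference from Day 3 was 1.05 (limma, unadjusted P = 0.00624, adjusted p = 0.0834). None of the 11 tested receptors was past the cutoff at Day 8 against saline, where 2.94% of all genes were.

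Cx3cr1 was at 87.5 and 30.7 CPM with saline, 34.7 and 37.1 CPM at Day 3 and 23.5, 63.3 and 64.1 CPM at Day 8. Its single ligand Cx3cl1 varied little, from 9.32 to 12.7 CPM over the 7 libraries. The log2 difference of Cx3cl1 was -0.003 at Day 3 and 0.23 at Day 8 against saline (unadjusted P = 0.993 by limma and 0.495 by edgeR). Cxcr5, the B cell follicle receptor, was at 6.17 and 3.16, then 2.47 and 2.90, then 3.82, 2.87 and 3.25 CPM, and its ligand Cxcl13 did not exceed 2.87 CPM. Cxcr6 lay between 1.76 and 5.45 CPM, with its membrane-bound ligand Cxcl16 between 29.2 and 67.3 CPM and overlapping groups.

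**Figure D5:**
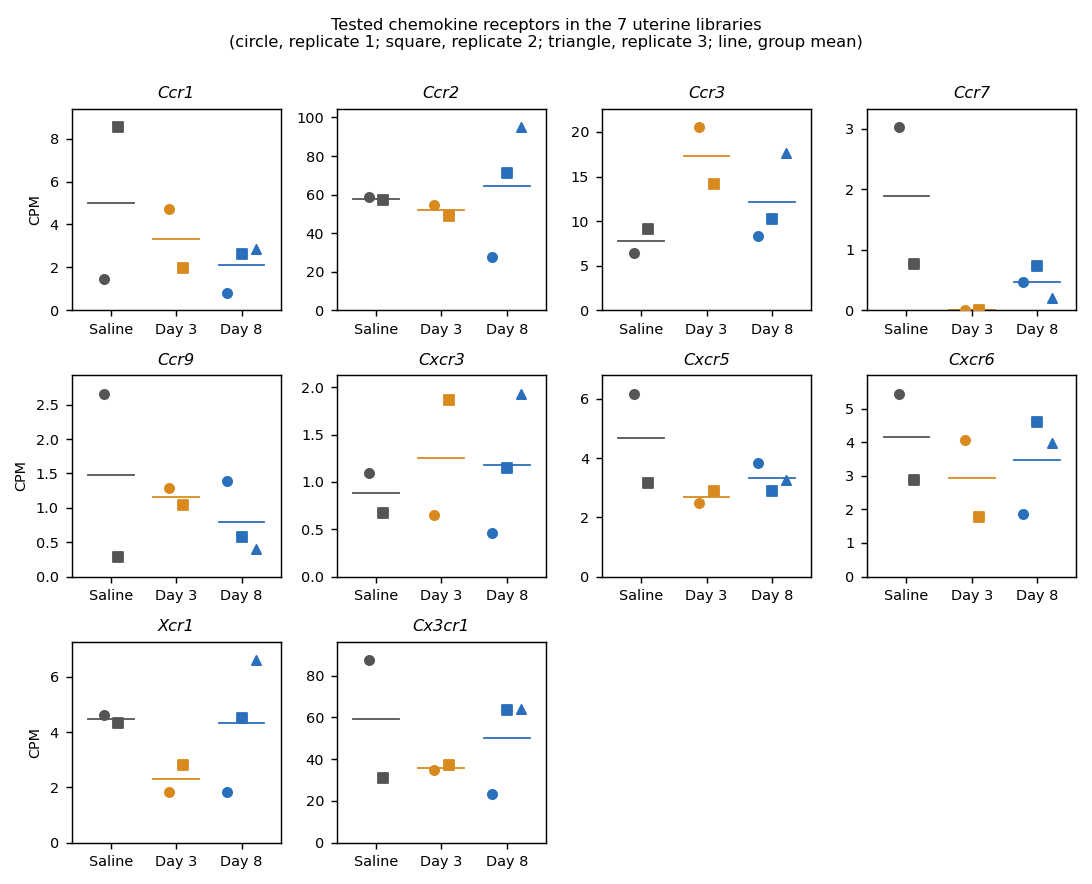
CPM (y axis, from 0) of tested chemokine receptors by group (x axis), with 1 point per library and a line at the group mean. Day 8 replicate 1 is the lowest library for Ccr1, Ccr2, Cxcr3 and Cx3cr1, and Ccr3 is the receptor whose Day 3 values of 20.5 and 14.2 CPM are past the cutoff against saline.

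Between the treated groups, 3 of 39 tested rows were past the cutoff, against 4.66% of all 14830 genes (2.25% higher and 2.41% lower). Ccl11 was lower at Day 8 than at Day 3, and Ccl5 and Ccl17 were higher. The median log2 difference was 0.42 over the ligands and 0.20 over the receptors, beside 0.001 over all genes, and 0.79 and 0.35 without Day 8 replicate 1. The 2 groups did not overlap in CPM in 10 rows, or 25.6%, where 32.7% of all genes did not overlap (13.8% above and 18.9% below), and 4 of the 5 rows lower at Day 8 were the neighbours Ccl2, Ccl7, Ccl11 and Ccl12.

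From Day 3 to Day 8 the log2 difference of Ccl11 was -2.43 ± 0.66 (SE, n = 3 and 2, limma, unadjusted P = 0.0063, adjusted p = 0.670). It lay between -2.76 and -2.16 in 15 alternative fits, each with an unadjusted P of 0.0449 or less. That of Ccl7 was -1.90 (limma, unadjusted P = 0.0773, adjusted p = 0.710), on values given above.

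Ccl5, the T cell and NK cell chemokine RANTES, was at 14.6 and 2.59 CPM with saline, 5.49 and 5.70 CPM at Day 3 and 13.5, 22.8 and 29.7 CPM at Day 8. Every Day 8 library was above both Day 3 libraries, while the saline-treated libraries lay on either side of Day 3 and reached into the Day 8 range. The log2 difference of Day 8 from Day 3 was 1.88 ± 0.70 (SE, limma, unadjusted P = 0.0289, adjusted p = 0.692) and that of Day 8 from saline 1.37 ± 0.72 (SE, edgeR, unadjusted P = 0.0981, adjusted p = 0.956). The latter passed the cutoff by limma in place of edgeR (1.78, unadjusted P = 0.0353, adjusted p = 0.710), and without saline replicate 1 it was 3.09, since replicate 1 held 121 counts and replicate 2 held 27. Over 15 alternative fits the difference of Day 8 from saline ranged from 0.59 to 3.09. The difference of Ccl5 between the days missed the cutoff without Day 3 replicate 1 (1.81) or 2 (1.92) and without Day 8 replicate 2 (1.83) or 3 (1.63).

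Ccl17, a ligand of Ccr4 made by dendritic cells, was at 0.484 and 1.05 CPM with saline, 0.221 and 0.104 CPM at Day 3 and 2.08, 1.40 and 0.508 CPM at Day 8. The Day 8 libraries held 18, 17 and 5 counts and the second Day 3 library held 1, so the log2 difference of 2.05 ± 0.86 (SE, limma, unadjusted P = 0.0437, adjusted p = 0.692) rests on values near the floor. Ccr4 itself did not exceed 0.821 CPM. Without Day 8 replicate 1, which was the highest library, the difference was 1.60 and was no longer past the cutoff (limma, unadjusted P = 0.125). It also missed the cutoff without Day 3 replicate 1 (2.31) or 2 (1.74) and without Day 8 replicate 2 (2.08). The lowest of 14 alternative fits, with Day 8 replicate 1 counted as Day 3, gave 0.63.

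Cxcl5, which draws neutrophils, was the one row lower past the cutoff at Day 3. It was at 1.69 and 3.93 CPM with saline (14 and 41 counts), 0.760 and 0.518 CPM at Day 3 (5 counts in replicate 2) and 1.74, 1.15 and 1.93 CPM at Day 8. Both Day 3 libraries were below all others. The log2 fold change was -1.65 ± 0.70 (SE, limma, unadjusted P = 0.0459, adjusted p = 0.623), and it was -1.06 without saline replicate 2. Leaving out Day 3 replicate 1 (-1.84) or 2 (-1.43) or Day 8 replicate 1 (-1.66) or 3 (-1.63) also gave an unadjusted P above 0.05. Of 5 tested neutrophil markers, 3 were lower past the cutoff at Day 3 (S100a8, S100a9 and Mmp9), beside 2.61% of all genes lower, while Retnlg and Mmp8 had log2 fold changes of 0.81 and 0.89 (unadjusted P = 0.0447 and 0.466) and were not past it. S100a9, a calcium-binding protein of neutrophils, was at 28.8 and 64.1 CPM with saline, 8.92 and 4.35 CPM at Day 3 and 8.22, 6.07 and 5.90 CPM at Day 8. Retnlg was the most abundant of the 8 markers, except in saline replicate 2, where S100a8 was. The 8 markers summed to 163 and 220, then 173 and 152, then 121, 162 and 188 CPM, so the groups overlapped. Their part in the level of Cxcl5 was not tested.

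Cxcl14 was high in a single library. It was at 198 and 49.0 CPM with saline, 38.1 and 42.8 CPM at Day 3 and 76.8, 48.4 and 40.2 CPM at Day 8. Its log2 fold change against saline was -1.44 at Day 3 (limma, unadjusted P = 0.0555) and -1.16 at Day 8 (edgeR, unadjusted P = 0.0809), and without saline replicate 1 it was -0.33 and 0.17. The interferon-induced ligands Cxcl9 and Cxcl10, which bind Cxcr3 on T and NK cells, were at most 5.93 and 3.53 CPM. Cxcl10 was at 3.39 and 1.34, then 0.438 and 0.933, then 1.39, 3.53 and 1.53 CPM, with Day 8 above Day 3 (log2 difference 1.31, limma, unadjusted P = 0.0890, adjusted p = 0.717).

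Other genes of the chemokine system were taken as lists. The first list held 10 tested genes. They were the ligands Pf4 and Ppbp, atypical receptors, which bind chemokines without G-protein signalling, and Cmklr1, Gpr35 and Pitpnm3. Of these 10, 1 was higher past the cutoff at Day 3 and none at Day 8 against saline, beside 1.89% and 1.53% of all genes. This was Ackr4, the scavenger of CCL19, CCL21 and CCL25, at 2.66 and 5.65 CPM with saline, 17.2 and 10.3 CPM at Day 3 and 6.94, 7.72 and 14.4 CPM at Day 8 (log2 fold change at Day 3 1.79 ± 0.52, SE, limma, unadjusted P = 0.00879, adjusted p = 0.623). Every treated library was above both saline-treated ones. The most abundant gene of the list was the platelet ligand Pf4, except in saline replicate 1, where Ackr3 was.

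Of 28 tested genes of receptor signalling, 1 was higher at Day 3 against saline (Gnb2, a G-protein beta subunit), 0 were past the cutoff at Day 8 against saline and 1 was higher at Day 8 than at Day 3, beside 1.89%, 2.94% and 2.25% of all genes. The last was Rgs2, a regulator of G-protein signalling, at 635 and 518 CPM with saline and 300.2 and 271 CPM at Day 3. At Day 8 it was at 261, 2431 and 2731 CPM. It was the most abundant of the list with saline and in Day 8 replicates 2 and 3. Gnai2 was the most abundant at Day 3 and Gnb1 in Day 8 replicate 1. Rgs2 was high in the same Day 8 libraries as Ccl8 and CCL21. Of 18 tested interferon-gamma response genes none was past the cutoff in any of the 3 comparisons. Of all genes, 2.94% were at Day 8 against saline, 4.5% at Day 3 against saline and 4.66% at Day 8 against Day 3. Among 15 tested genes of NF-kB feedback, 2 were lower at Day 8 against saline (Il1b and Tnfaip2) and 1 at Day 3 (Il1b), beside 1.42% and 2.61% of all genes, with none higher.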

How the data were processed

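QuantSeq 3′ mRNA libraries of mouse uterus were analysed. Alignment was done by the authors with Bowtie2, reads per gene, those aligned more than once included, were tallied with Bedtools, and quantile normalization was run in edgeR. Versions are not given in the sources used here, and the submitters' processing notes list the builds mm10 and hg19. The authors deposited unnormalized read counts per symbol for 6 libraries. The deposited table of Day 3 replicate 1 holds normalized counts as log2, and after undoing the log2 and a factor of 1.0515, 97.6% of 3275 low values came within 0.1 of a whole number, where chance gives 20%. Duplicate symbols were kept as separate rows. Values of 1 receptor, which is in the counts and sums, are not reported here.

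Groups followed the labels. The test of Day 8 against saline was edgeR 4.0.16 (glmQLFit, glmQLFTest, TMM, filterByExpr), run on the counts of 6 libraries in 3 groups without covariates, leaving 3 residual degrees of freedom. Comparisons with Day 3 used limma 3.58.1 (lmFit, eBayes with trend, 4 residual degrees of freedom) on log2(normalized count + 1), quantile-normalized over all 7 libraries, a scale that understates changes of low genes. Standard errors of edgeR were taken as the size of the log2 fold change divided by the square root of F. Fits used the whole tables, and p values were adjusted over all genes tested. R 4.3.3 and DESeq2 1.42.0 were used too, and scripts were tested on simulated data. By chi-square the counts of the saline pair and of each Day 8 pair differed beyond sampling noise, and none was counted as a duplicate. The Day 3 pair, of which 1 has no counts, was not tested this way.

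The chemokine rows, marker lists, pairs and alternatives were chosen with earlier results of these data known. Values per library are given for rows past the cutoff, for the row with the smallest P and the highest mean level of each role, and for their known partners. Alternatives were other normalizations, filters and a pseudocount of 0.1, the 2 compared groups alone, DESeq2 or limma or edgeR in place of the main tool, the replicate block, Day 8 replicate 1 counted with Day 3 and leaving out each library. Transcripts of GENCODE M21 and promoters of RefSeq (GRCm38.p6) gave the sequences, and 36 of 52 symbols had a promoter.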

Additional observations from a re-analysis of the deposited data

Results flagged for a closer look

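Ccl5 lay on opposite sides of the saline mean in the 2 treated groups, the Day 3 one close to it (log2 difference -0.09, limma, unadjusted P = 0.909). At Day 8 the difference from saline was 1.37 by edgeR (unadjusted P = 0.0981) and 1.78 by limma (unadjusted P = 0.0353). On the quantile-normalized log2 scale the Day 3 libraries were at -0.145 and -0.0368 from the saline mean, and the Day 8 libraries at 1.17, 1.90 and 2.28. The difference of Day 8 from Day 3 was tested by limma (log2 difference 1.88 ± 0.70, SE, unadjusted P = 0.0289, adjusted p = 0.692), and the Day 3 distances are small beside the gap between the saline-treated libraries, at 14.6 and 2.59 CPM.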

How the results depend on the processing

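Counts of rows past the cutoff were small and moved with single libraries and settings, and a cause other than fewer samples or genes was not tested. For Day 8 against saline, 4 chemokine rows and 453 genes were past the cutoff. Leaving out each library gave 2 to 6 rows and 229 to 1527 genes, and counting Day 8 replicate 1 with Day 3 gave 1094 genes and 1 row past the adjusted p (Ccl8). DESeq2 called 49 genes but 0 chemokine rows at the adjusted p. With only Day 8 replicate 1 left out, 5 rows and 1027 genes were past the cutoff at Day 8 against saline. Of these 5 rows, 2 were among the 4 of the main fit. The same omission gave 10 rows and 1671 genes at Day 8 against Day 3, and 5 rows and 762 genes at Day 3 against saline. For Day 3 against saline, 6 rows and 668 genes became 3 rows with at least 10 counts in every library, 3 rows in the 2 groups alone, and 2 to 11 rows and 264 to 2890 genes when each library was left out, with 0 to 6 rows past the adjusted p, the 6 (Xcl1, Ccl7, Ccl11, Ccl12, Ccr7, Cxcl14) without saline replicate 2. In that fit 2292 of all genes passed it too, and as in every fit that leaves 1 library in a group, this library was assumed to vary like the other groups. For Day 8 against Day 3, 3 rows and 691 genes became 13 rows, 1794 genes and 8 rows past the adjusted p when Day 8 replicate 1 was counted with Day 3, and 1 to 10 rows, 295 to 1671 genes and 0 to 5 rows past the adjusted p when each library was left out, the 5, with Ccl8 and the CCL21 rows among them, without Day 8 replicate 1. Cxcl14 turned from -1.16 to 0.17 at Day 8 without saline replicate 1, and ranged from -1.84 to 0.17 over the libraries left out, and Ccr2, near 0, turned from 0.17 to -0.0086 by limma and to -0.38 with the replicate block (its saline numbers exchanged or not) at Day 8 against saline (-0.23 to 0.53 over the libraries left out), and from 0.24 to -0.12 with the block against Day 3 (-0.12 to 0.77). No other gene recomputed reversed its sign. The median of the receptors at Day 8 against saline turned from -0.23 to 0.11 without Day 8 replicate 1, 0.21 with it counted as Day 3 and 0.23 without saline replicate 1. That of the receptors at Day 8 against Day 3 turned from 0.20 to -0.04 with the replicate block and to -0.05 without Day 8 replicate 3, and that of the ligands at Day 3, -0.003, ranged from -0.14 to 0.08. Ccl11 at Day 3 and at Day 8 against Day 3 kept its side of the cutoff in all 15 fits each. Of up to 15 fits, calls were lost in 7 for Ccl8, 5 for Ccl9, 5 for Cxcl17 and 1 for Xcl1 at Day 8, in 5 for Xcl1, 7 for Ccl7, 5 for Ccl12, 3 for Ccr3 and 8 for Cxcl5 at Day 3, and in 6 for Ccl5 and 6 for Ccl17 between the days. Calls were gained at Day 8 in 7 for Ccl21c, 4 for Ccl21b, 2 for Ccl21a, 3 for Ccl5, 3 for Ccl11 (1.57 by limma, unadjusted P = 0.0449) and 2 for Cxcl14, in 3 for Cxcl14 at Day 3, and between the days in 3 for Ccl7, 2 for Ccl8, 1 for Xcl1 and 1 for Ccr2.

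With edgeR on counts estimated from the log2 table, 21.2% of the calls at Day 3 against saline were higher, where limma gave 42.1%, and 68.0% at Day 8 against Day 3, where limma gave 48.2%. At Day 3 this fit called 4 chemokine rows, 2 of them higher, and 3 of the 6 rows called by limma were among them (Ccl11, Ccr3 and Cxcl5). Replicate numbers are shared between groups, but the labels do not say which libraries share an animal, so the numbers were not taken as pairs. Deviations of same-numbered libraries from their group means had correlations from -0.168 to -0.005. Those of differently numbered saline and Day 8 libraries had -0.129 to 0.168. In a group of 2 the deviations mirror each other, so these correlations cannot decide on pairing. With the replicate block, 2 rows and 157 genes were past the cutoff at Day 8 against saline, 6 rows and 573 genes at Day 3 and 2 rows and 425 genes between the days. Under it Ccl8 (0.80) and Cxcl17 (1.13) at Day 8, Cxcl5 at Day 3 and Ccl5 between the days (1.63) lost their calls. With the saline numbers exchanged, a fit added after the data were seen, it was 5 rows, 336 genes and 2 genes past the adjusted p at Day 8 against saline. Depth limits the rows under 1 CPM, where a change was not detectable.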

Other observations

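Gene groups that respond to ovarian steroids differed among the libraries in which chemokines differed. The median centred log2 level of 14 genes known to be induced by progesterone in the uterus was -1.04 and -0.49 with saline, -0.89 and -0.87 at Day 3 and -0.14, 1.65 and 2.26 at Day 8. That of the genes known to be induced by oestrogen was -0.19 and 0.37, then 0.82 and 0.62, then 0.73, -1.75 and -1.13. Day 8 replicates 2 and 3, where Ccl8, CCL21 and Ccr2 had their highest levels, were thus the highest for the first list and the lowest for the second, and Day 8 replicate 1 lay with the Day 3 libraries for the second.

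Against saline at Day 8, 6 of 14 tested genes of the progesterone list were higher past the cutoff and none lower, among them Il13ra2 and Prss29, beside 1.53% of all genes higher and 1.42% lower. At Day 3, 1 of 13 was higher (Il13ra2) and 2 were lower (Ihh and Ptch1), beside 1.89% and 2.61%. Of the oestrogen list, 1 gene was higher (Clca3a1) and 1 lower (Ltf) at Day 8 against saline, and none of 11 tested was past the cutoff at Day 3. Against Day 3, 5 of 11 were lower at Day 8, among them Lcn2, Muc1 and Sprr2f, beside 2.41% of all genes lower. No gene of either list passed the adjusted p of 0.1 (edgeR and limma, smallest adjusted p 0.558). The part of the cycle stage in the chemokine values was not tested.

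Mast cell markers summed to 13.4 and 21.8 CPM with saline and 21.9 and 14.1 CPM at Day 3. At Day 8 they summed to 10.3, 61.6 and 51.5 CPM, with none of 5 tested past the cutoff against saline, beside 2.94% of all genes. Kit was the most abundant, except in Day 3 replicate 1 (Cma1) and Day 8 replicate 2 (Cpa3). Dendritic cell markers, led by Clec10a, summed to 52.2 and 44.2, then 39.1 and 30.6, then 19.6, 50.6 and 43.6 CPM, and 1 of 8, Cd209a, was higher past the cutoff at Day 3 and 1, Flt3, at Day 8 against Day 3, beside 1.89% and 2.25% of all genes. B cell markers summed to at most 7.75 CPM and T cell markers to between 53.0 and 96.5 CPM. Most of the T cell sum was Thy1, at 41.6 to 73.8 CPM, which is on the stromal list too. Cd3e, Cd4 and Cd8a did not exceed 1.82 CPM. Of 3 tested B cell markers 1, Cd79b, was lower past the cutoff at Day 8 against Day 3, beside 2.41% of all genes, and none was past it against saline. Of 6 smooth muscle markers, 2 were higher at Day 8 against saline (Des and Actg2) and 1 at Day 3 (Actg2), beside 1.53% and 1.89% of all genes. None of the 9 stromal, 9 epithelial and 7 oviduct markers was past the cutoff in any comparison. Of all genes, 2.94% were at Day 8 against saline, 4.5% at Day 3 against saline and 4.66% between the days.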
